A study of Mus musculus with 50 samples.

Results

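Described here are 10 mouse genes of the temperature and protein-folding stress responses. Cirbp and Rbm3 are the cold-shock genes, and Hspa1a, Hspa1b, Hsph1, Dnajb1, Hspa8, Hsp90aa1, Hspb1 and Hspd1 are the heat-shock genes. They were taken by symbol from the 52636 genes of a deposited table of read counts, of which 38478 had at least 1 count. All 10 were found, and all 10 passed the filter on low counts in every comparison. The genes were selected on measured values, since Cirbp had been found higher in aJ1aJ2 than in RW at 5 days. That comparison is therefore given below as a description with no test. The question asked of the other comparisons is whether Cirbp and Rbm3 move against the heat-shock genes.

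The data are 50 RNA-seq libraries of thyroid from male C57BL/6 mice, in 10 groups of 5. The sample labels give an age of 10 to 14 weeks, and the series text gives 10 to 12. RW is the isotype control, an antibody to ragweed at 40 mg/kg. The other antibodies block Notch signalling, in which the ligands Jag1 and Jag2 on a cell activate Notch receptors on its neighbour. aJ1aJ2 combines antibodies to Jag1 and Jag2 at 20 mg/kg each, aN1aN2 combines antibodies to Notch1 at 5 mg/kg and Notch2 at 10 mg/kg, and aN1aN2aN3 adds an antibody to Notch3 at 20 mg/kg. Each was given once into the peritoneum, and thyroids were taken 15 hours after RW, aJ1aJ2 or aN1aN2, 5 days after the same antibodies, or 7 days after. A first 7-day set held RW and aJ1aJ2, and a second held aJ1aJ2 and aN1aN2aN3, so the second set has no RW group. The series text also speaks of daily thyroid hormone injections, but no label ties them to a library, and the labels give neither the clock hour of collection nor body temperature. Each library has its own sample ID, and the labels do not say in words that each came from a separate mouse, so the p-values measure the spread between these libraries, which may be technical.

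Cells respond to heat and to misfolded protein through heat-shock factor 1, which binds inverted repeats of a GAA unit before chaperone genes and raises their transcription. The chaperones hold, fold or pull apart damaged proteins. Cirbp and Rbm3 encode small RNA-binding proteins with 1 RNA-recognition motif and a glycine-rich tail, and both are known to rise with mild cooling and to fall with warming, including over the daily cycle of body temperature. Thyroid hormone is a main regulator of heat production in mammals.

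Some libraries stand apart and touch results below. Library totals ran from 15271242 to 52835846 counts. The 12 thyroid markers together took 7.53 to 42.8% of counts in all but 12 libraries, that is, all 10 of the second 7-day set, where they took 1.29 to 6.87%, RW replicate 3 at 5 days, with 0.455%, and the lowest aJ1aJ2 library at 5 days, with 2.41%. Thyroglobulin (Tg) alone made up most of this share in every library. No thyroid marker was at 0 in all libraries. RW replicate 3 at 5 days also had 11.3% of its counts in 9 skeletal muscle markers, a tissue that lies against the thyroid, and no muscle marker was at 0 in any library. In bulk tissue, fewer cells of a type and less RNA per cell cannot be told apart. The deposited FPKM table fell into 2 blocks with different library scaling, the 20 libraries of aN1aN2 at 15 hours and all 5-day groups, and the other 30. At 15 hours, aN1aN2 and its comparators therefore sit in different blocks, and block and antibody cannot be told apart there.

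How well a 50-base read can be assigned differs between these genes. Of all 50-base windows in their annotated transcripts, 0% of those of Cirbp and Hsph1 and 0.412% of those of Dnajb1 also occur in transcripts of another gene. The share is 9.71% for Rbm3, which also has an antisense neighbour, Rbm3os, overlapping its exons. It is 39.4% for Hspa8, 42.1% for Hspd1, 47.5% for Hsp90aa1 and 50.1% for Hspb1, shared with processed pseudogenes among others, and Hspd1 exons also overlap Hspe1 on the other strand. Hspa1a (66.3%) and Hspa1b (62.3%) are near-identical copies. Whether counting used strand is not given in the sources used here, so levels of these 7 genes are uncertain, while those of Cirbp, Hsph1 and Dnajb1 are not affected by shared sequence to a comparable degree.

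RefSeq windows of 250 bases before a transcription start (build GRCm38.p6) were found for 7 of the 10 genes, with 11 start sites among them. Both strands were searched for the heat-shock element as GAANNTTC or TTCNNGAA, and for TCCCCGCC, a published mild-cold element of Cirbp. A match is a description of letters and not a shown binding site. Over all 32851 RefSeq windows of this length, 12.8% held the heat-shock letters, 0.466% held 3 units in a row, and 4.64% held the mild-cold letters. The stretches below are 5′ to 3′ on the gene's strand, with the fixed letters of each match in capitals. Hspa1a and Hspa1b are shown because they moved together in all sets, Hspb1 and Hspd1 for their repeated heat-shock letters, Hsph1 as the heat-shock gene that ran most against Cirbp, and Cirbp for its mild-cold letters.
Hspa1a, chr17:34972157-34972306, minus strand: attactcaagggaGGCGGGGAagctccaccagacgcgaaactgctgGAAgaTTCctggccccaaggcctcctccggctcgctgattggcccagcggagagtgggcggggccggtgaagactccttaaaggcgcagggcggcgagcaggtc
Hspa1b, chr17:34959239-34959388, minus strand: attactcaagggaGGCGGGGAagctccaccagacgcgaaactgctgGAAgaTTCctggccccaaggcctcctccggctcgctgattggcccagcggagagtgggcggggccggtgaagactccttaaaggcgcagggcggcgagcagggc
Hspb1, chr5:135887769-135887918, plus strand: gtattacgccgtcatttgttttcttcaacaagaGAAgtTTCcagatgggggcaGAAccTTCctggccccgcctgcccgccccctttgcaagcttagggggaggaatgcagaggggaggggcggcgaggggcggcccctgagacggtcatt
Hspd1, second start, chr1:55088053-55088082, minus strand: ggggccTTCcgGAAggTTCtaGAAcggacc
Hsph1, first start, chr5:149636351-149636380, minus strand: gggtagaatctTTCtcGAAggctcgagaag
Cirbp, first start, chr10:80167589-80167738, plus strand: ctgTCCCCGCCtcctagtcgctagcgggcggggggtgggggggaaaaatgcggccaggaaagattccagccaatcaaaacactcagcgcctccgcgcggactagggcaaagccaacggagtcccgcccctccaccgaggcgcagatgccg

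The 250 bases before Hspa1a and Hspa1b were identical at 247 positions, and in both the heat-shock letters began 104 bases upstream of the start. The same windows also held the mild-cold letters, read on the opposite strand, at 137 bases upstream. Hspb1 had heat-shock letters at 117 and 97 bases upstream, Hsph1 at 33 bases upstream of its first start, and Hspd1 at 144, 139 and 134 bases upstream of its second start, which form 1 run of alternating units. In Cirbp the mild-cold letters began 247 bases upstream of the first start, and neither Cirbp window held the heat-shock letters. Neither Dnajb1 window held any of these letters.

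**Figure D1:**
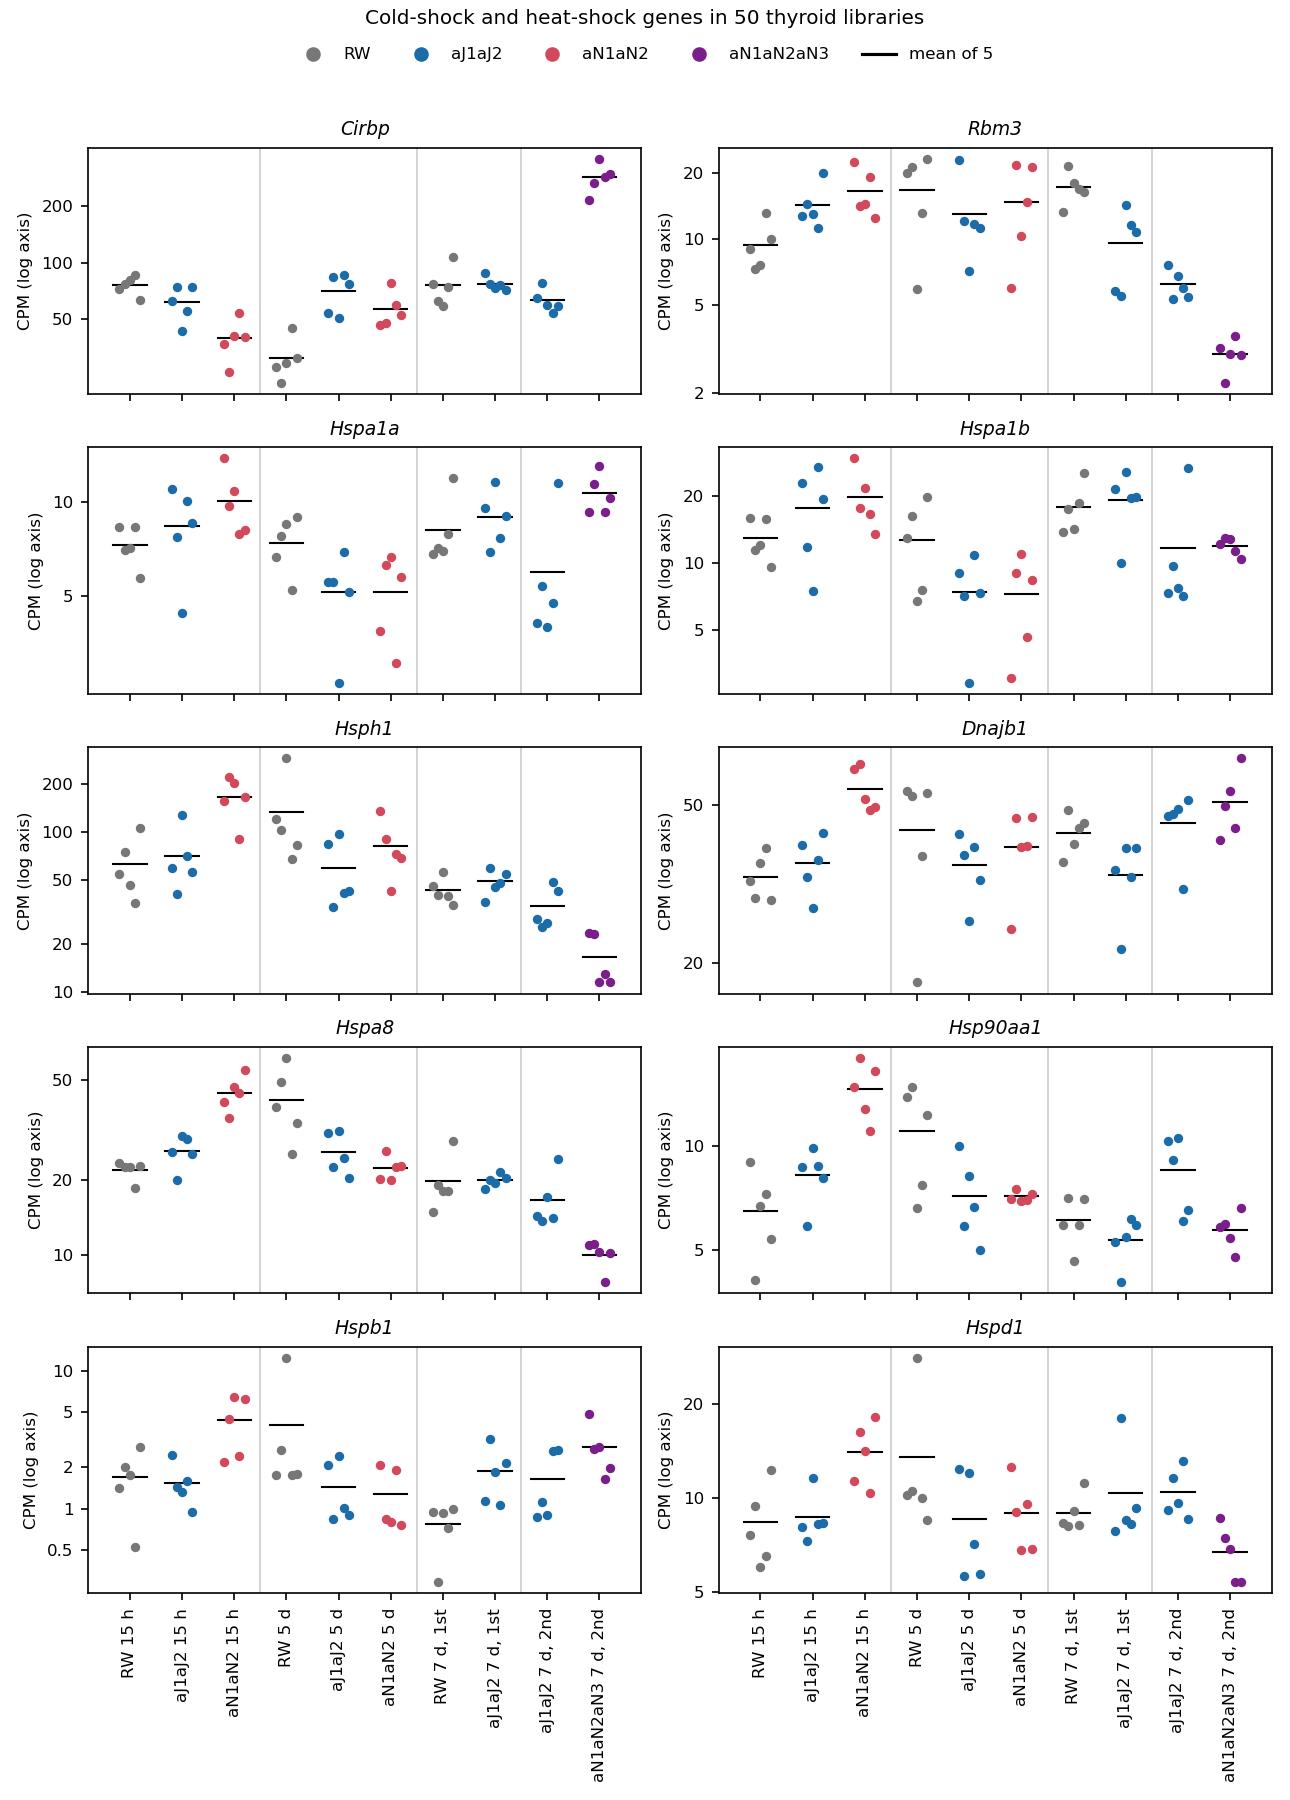
Each panel plots 1 gene, with 5 libraries per group as points and their mean as a line, in CPM (counts scaled to library size) on a log axis, and vertical lines separate the times and sets. Cirbp is highest in all 5 aN1aN2aN3 libraries (215 to 357 CPM). In that group Rbm3, Hsph1, Hspa8 and Hspd1 have their lowest group means, and Hspa1a has its highest.

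Group means spread far more for some of these genes than for others. Cirbp ran from 31.2 CPM in RW at 5 days to 284 CPM in aN1aN2aN3, a 9.08-fold range, and Hsph1 from 16.4 CPM in aN1aN2aN3 to 166 CPM in aN1aN2 at 15 hours, a 10.1-fold range. Rbm3 spanned 5.72-fold (3.00 to 17.1 CPM), Hspb1 5.59-fold (0.780 to 4.36 CPM) and Hspa8 4.43-fold (10.1 to 44.6 CPM). The narrowest was Dnajb1, at 1.67-fold (32.9 to 54.9 CPM), followed by Hspa1a at 2.09-fold, Hspd1 at 2.10-fold, Hspa1b at 2.72-fold and Hsp90aa1 at 2.73-fold. In the order of Cirbp group means, the libraries of each of the first 8 groups overlapped those of the next higher group. The step from aJ1aJ2 in the first 7-day set, at most 88.3 CPM, to aN1aN2aN3, at least 215 CPM, was the gap. For Rbm3 the order began with aN1aN2aN3, at most 3.63 CPM, and did not overlap the next group, aJ1aJ2 of the same set, at least 5.33 CPM.

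Levels of different genes can be set side by side only per length, and the deposited FPKM divides by the whole gene span, introns included, as described in the processing section. On that scale, in RW of the first 7-day set, Cirbp stood at 20.7 ± 5.24 FPKM (SD, n = 5), Dnajb1 at 10.1 and Hspa1b at 6.73 ± 1.77. Hspa8, the constitutive cytosolic Hsp70, stood at 4.95 ± 1.31 FPKM and Hsph1 at 2.07 ± 0.374. Hsph1 spans 22.1 kb of genome but 7.27 kb of joined exons, so its place in this order depends on the length used.

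Against RW at 15 hours, aN1aN2 thyroids had lower Cirbp and higher Hspa8, Hsp90aa1 and Dnajb1. These 4 of the 10 genes had an adjusted p below 0.05 in edgeR's quasi-likelihood test, where 1.68% of all genes tested did. All 8 heat-shock genes had a positive log2 fold change, with a median of 0.88 against 0.01 over all genes. Rbm3 did not go with Cirbp, since its estimate was also positive. The values follow by role.

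Cirbp stood at 72.4, 77.1, 81.3, 86.3 and 63.4 CPM in the RW libraries at 15 hours (76.1 ± 8.77, SD, n = 5). The aN1aN2 libraries had 37.0, 26.4, 40.6, 54.3 and 40.5 CPM (39.7 ± 9.97). Every aN1aN2 library lay below every RW library. Cirbp fell by 0.94 on the log2 scale (SE 0.18, adjusted p = 0.0189), a level 1.92-fold higher in RW. Leaving out RW replicate 2, 3 or 4 or aN1aN2 replicate 1 or 5 took the adjusted p to between 0.0504 and 0.0755, and the other 10 fits that left out 1 library kept the call. Rbm3 went from 9.39 ± 2.33 CPM in RW to 16.5 ± 4.10 CPM in aN1aN2, with overlapping libraries and a log2 fold change of 0.81 (SE 0.21, adjusted p = 0.0699).

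Hspa8 carried the smallest p-value among these genes at this time. Its RW libraries held 23.4, 22.6, 22.5, 18.6 and 22.8 CPM, and its aN1aN2 libraries 40.8, 35.5, 46.9, 44.8 and 54.9 CPM. The groups did not overlap, and Hspa8 rose 2.03-fold (log2 1.02, SE 0.13, adjusted p = 0.00147). Hsp90aa1, the stress-inducible cytosolic Hsp90, had 8.95, 4.08, 6.69, 7.25 and 5.36 CPM in RW and 14.8, 18.0, 12.8, 11.0 and 16.5 CPM in aN1aN2. It rose 2.25-fold without overlap (log2 1.17, SE 0.21, adjusted p = 0.0124). Dnajb1 encodes the Hsp40 partner that loads substrates onto Hsp70. It had 32.2, 29.1, 35.6, 38.8 and 28.8 CPM in RW and 61.6, 63.2, 51.7, 48.6 and 49.4 CPM in aN1aN2, again without overlap, and rose 1.67-fold (log2 0.74, SE 0.13, adjusted p = 0.0113). The calls of Hspa8, Hsp90aa1 and Dnajb1 were kept in every fit that left out 1 library. Of these 10 genes 3 lay wholly above and 1 wholly below RW, where 5.21% of all genes did not overlap in either direction.

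The other 5 heat-shock genes did not pass. Hsph1, the Hsp110 that recharges Hsp70 by nucleotide exchange, had 54.2, 74.5, 46.2, 35.7 and 105 CPM in RW and 155, 218, 201, 90.6 and 164 CPM in aN1aN2. Only aN1aN2 replicate 4 lay under an RW library, replicate 5. The log2 fold change of Hsph1 was 1.39 (SE 0.35, adjusted p = 0.0618). It passed without RW replicate 5, aJ1aJ2 replicate 2 or 3 or aN1aN2 replicate 4 (adjusted p = 0.0255 to 0.0463). Hspd1, the mitochondrial Hsp60, had a log2 fold change of 0.75 (adjusted p = 0.106), and passed without RW replicate 5 (adjusted p = 0.0360). Hspb1, a small heat-shock protein that holds unfolded proteins, had 1.36 (adjusted p = 0.136). The inducible Hsp70 pair had 0.46 for Hspa1a (adjusted p = 0.368) and 0.60 for Hspa1b (adjusted p = 0.392).

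Levels of tissue markers stand beside these values. The thyroid share of counts was 14.7 to 33.7% in RW and 7.53 to 37.2% in aN1aN2 at 15 hours, and the muscle share was 0.0499 to 5.50% (median 0.785) and 0.139 to 4.83% (median 3.17). None of 12 thyroid and none of 9 muscle markers passed the test, with all 12 thyroid estimates negative (median -0.40) and 6 of 9 muscle estimates positive (median 0.15). Estimates were positive for all 8 adipose (median 0.67), all 6 fibroblast (median 0.33), all 5 cartilage (median 2.78) and all 5 airway markers (median 0.57), with 0 of any of these passing in edgeR. The adipose share was 0.0455 to 0.121% in RW and 0.112 to 0.170% in aN1aN2. The part of these tissues in the values of the heat-shock genes was not tested. With the muscle share as a covariate Cirbp had a log2 fold change of -0.91 (adjusted p = 0.00571), Hspa8 1.00 (adjusted p = 0.0005) and Hsph1 1.37 (adjusted p = 0.002). Then 8 of the 10 genes passed, but the share of all genes with this covariate is not given. Over all genes, settings other than leaving out a library called 186 to 842, so nothing is read from that count. With that covariate Rbm3 was higher by 0.84 (adjusted p = 0.0113), the direction opposite to Cirbp.

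The ligand antibodies at 15 hours gave no call. In aJ1aJ2 against RW 0 of the 10 genes passed, where 0.573% of all genes did, and 1 of the 10 had an unadjusted p below 0.05. Cirbp stood at 62.3, 74.6, 43.3, 55.7 and 74.0 CPM in aJ1aJ2, overlapping RW, with a log2 fold change of -0.30 (SE 0.18, adjusted p = 0.910). For Rbm3 it was 0.60 (SE 0.21, adjusted p = 0.582). The 8 heat-shock genes had a median of 0.18, with 7 positive and 1 negative, against -0.03 over all genes. This comparison and the previous one share the RW libraries. Set directly against aJ1aJ2, aN1aN2 had higher Hspa8 (log2 0.77, SE 0.13, adjusted p = 0.0345), the 1 gene of the 10 that passed, where 0.130% of all genes did. That call was lost in 10 of 15 fits that left out 1 library (adjusted p = 0.0575 to 0.122). Cirbp had a log2 fold change of -0.64 there (adjusted p = 0.184), Dnajb1 0.62 (adjusted p = 0.10) and Hsph1 1.23 (adjusted p = 0.184). DESeq2 called Cirbp in this comparison (adjusted p = 0.0348), and antibody and FPKM block cannot be told apart here either.

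**Figure D2:**
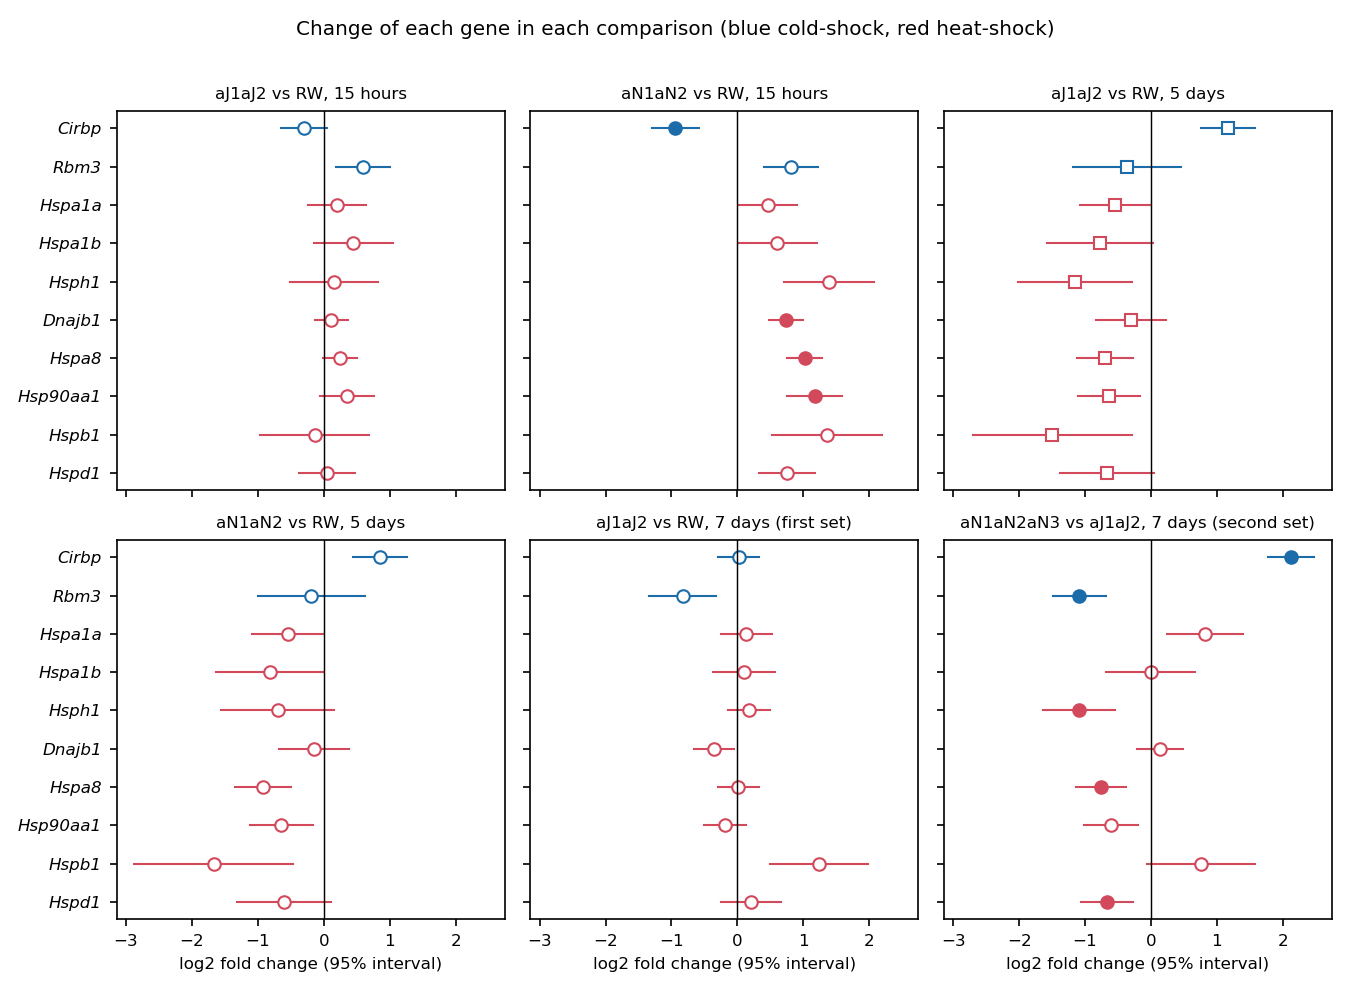
Each panel shows the log2 fold change of the 10 genes in 1 comparison, with its 95% interval from the SE, cold-shock genes in blue and heat-shock genes in red. Filled points passed an adjusted p of 0.05, and squares mark the comparison that chose Cirbp, which has no test. Cirbp lies left of 0 and all 8 heat-shock genes right of 0 for aN1aN2 at 15 hours, whereas at 5 days both antibodies put Cirbp right of 0 and the heat-shock genes left of it.

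At 5 days estimates in both antibody groups had the opposite signs to those of aN1aN2 at 15 hours. No heat-shock estimate passed in edgeR. aJ1aJ2 had given no call at 15 hours, and both groups share the 5-day RW libraries. RW itself differed between the times. Its Cirbp mean was 76.1 CPM at 15 hours and 31.2 CPM at 5 days, and its Hspa8 mean 22.0 and 41.8 CPM. In aJ1aJ2 against RW, the comparison that brought Cirbp into view, Cirbp had 27.9, 23.0, 29.3, 44.8 and 31.2 CPM in RW and 54.2, 83.6, 50.6, 86.6 and 77.2 CPM in aJ1aJ2, without overlap and with a log2 fold change of 1.17. All 8 heat-shock genes were lower, from -1.49 for Hspb1 and -1.15 for Hsph1 to -0.30 for Dnajb1, with a median of -0.68 against -0.06 over all genes. Rbm3 was at -0.37. For the background, 1 of the 10 genes passed where 0.179% of all genes did, and 1 did not overlap where 3.75% of all genes did not. Nothing is read from these counts.

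aN1aN2 was set against the same RW libraries at 5 days, so its values stand beside those of aJ1aJ2 and are not independent of them, nor of the choice of Cirbp. The p-values of the other genes here share that limit and are a description. Cirbp in aN1aN2 stood at 46.7, 48.1, 78.3, 59.4 and 52.5 CPM, above every RW library, with a log2 fold change of 0.86, given without a test for that reason. Hspa8 had 39.3, 49.2, 61.5, 25.4 and 33.7 CPM in RW and 20.2, 26.1, 20.0, 22.6 and 22.8 CPM in aN1aN2. The highest aN1aN2 library was just above the lowest RW library, and Hspa8 had a log2 fold change of -0.92 (SE 0.22, adjusted p = 0.190). All 8 heat-shock genes were negative, with a median of -0.67 against -0.07 over all genes, and Rbm3 was at -0.19 (adjusted p = 0.933). None of the 8 passed in edgeR, and 3 of them had an unadjusted p below 0.05. Over all genes 0% passed, with 1848 at an unadjusted p below 0.05, while DESeq2 called 402 genes, Hspa8 among them (log2 -0.93, adjusted p = 0.00721). Cirbp was the 1 gene of the 10 whose groups did not overlap, where 2.10% of all genes did not, and nothing is read from it. Between aN1aN2 and aJ1aJ2 at 5 days, 0 of the 10 genes and 0% of all genes passed in edgeR (778 genes at an unadjusted p below 0.05, 49 genes by DESeq2), with Cirbp at -0.31 (95% interval -0.71 to 0.10).

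Much of the 5-day size of 3 heat-shock genes came from RW replicate 3, the library with little thyroid and much muscle signal. It held 288 CPM of Hsph1, where the other RW libraries had 67.5 to 119.8, and 12.4 CPM of Hspb1, where the others had 1.75 to 2.65. Hspd1 stood at 28.2 CPM in it and at 8.46 to 10.5 CPM in the others. Without it, the log2 fold change of Hsph1 in aN1aN2 was -0.20 in place of -0.70, that of Hspb1 was -0.63 in place of -1.67, and that of Hspd1 was -0.14 in place of -0.60. Cirbp, at 29.3 CPM in that library, kept 0.84 without it, and Hspa8 kept -0.73 (adjusted p = 0.143). With the muscle share as a covariate 4 of the 8 heat-shock genes passed in aN1aN2 against RW, among them Hspa8 (-0.998, adjusted p = 0.0272) and Hsph1 (-0.997, adjusted p = 0.0478). The share of all genes with this covariate is not given. Over all genes, settings other than leaving out a library called 0 to 1507, so nothing is read from that count. All 9 muscle markers and 8 of 11 thyroid markers tested had negative estimates in both antibody groups at 5 days. RW replicate 3 was also the lowest of its group for Dnajb1 (17.8 CPM against 37.2 to 54.1) and for Rbm3 (5.94 CPM against 13.1 to 23.1).

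How far the aN1aN2 effect at 5 days departed from that at 15 hours was taken from a single contrast over 30 libraries. It holds the 5-day RW libraries through which these genes were selected. Its p-values are therefore not independent of that selection and are given as a description. All 8 heat-shock genes were negative, with a median of -1.62 against -0.07 over all genes. Of the 8, 3 passed, where 1.80% of all genes did, and nothing is read from this count. Hspa8 changed by -1.93 on the log2 scale (SE 0.25, adjusted p = 0.000136) and Hsp90aa1 by -1.82 (SE 0.33, adjusted p = 0.0032). Both calls were kept in every fit that left out 1 library, and without RW replicate 3 at 5 days Hspa8 was at -1.77 and Hsp90aa1 at -1.96. Hspb1 changed by -3.02 (SE 0.76, adjusted p = 0.0343), but the call was lost in 11 of 30 such fits (adjusted p = 0.0524 to 0.0713), and without RW replicate 3 at 5 days Hspb1 stood at -2.04 (adjusted p = 0.0611). Hsph1 had -2.10 (adjusted p = 0.0535), and passed in 8 of 30 such fits, and Dnajb1 had -0.89 (adjusted p = 0.157), and passed without RW replicate 3 at 5 days (-1.09, adjusted p = 0.0175). Rbm3 had -0.99 (adjusted p = 0.339).

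Cirbp changed by 1.80 in the same contrast, given without a p because the 5-day RW libraries are those that chose it. For aJ1aJ2 the same contrast had Cirbp at 1.43, which contains the comparison that chose it. All 8 heat-shock genes were negative there, with a median of -0.99 and Hspa8 at -0.96. These values are a description for that reason. For the background, 0 of the 8 passed in edgeR, where 0.636% of all genes did, and nothing is read from this count. The RW libraries themselves differed between the times. Cirbp in RW ran from 63.4 to 86.3 CPM at 15 hours and from 23.0 to 44.8 CPM at 5 days, and Hspa8 from 18.6 to 23.4 and from 25.4 to 61.5 CPM. A contrast of effects therefore holds the change in RW as well as the change in the treated groups, and RW at the 2 times lies in different FPKM blocks, so time and block cannot be told apart.

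In the first 7-day set no gene of the 10 passed, and the Cirbp means of the groups were close. RW had 77.4, 63.0, 58.7, 74.0 and 108 CPM and aJ1aJ2 had 88.3, 76.7, 73.2, 76.2 and 72.1 CPM and the groups overlapped. The log2 fold change of Cirbp was 0.02 (95% interval -0.29 to 0.32, adjusted p = 0.966). Rbm3 had 13.2, 21.4, 17.9, 16.8 and 16.4 CPM in RW and 5.82, 5.53, 14.3, 11.6 and 10.8 CPM in aJ1aJ2. These overlapped by the highest aJ1aJ2 library, and the log2 fold change of Rbm3 was -0.83 (SE 0.26, adjusted p = 0.259). Among the heat-shock genes 6 were positive and 2 negative, with a median of 0.12. Hspb1 had the lowest counts of the 10 genes, at 0.295 to 1.00 CPM in RW and 1.07 to 3.21 CPM in aJ1aJ2, without overlap (log2 1.24, SE 0.38, adjusted p = 0.243). The muscle share was 0.118 to 1.81% in RW and 0.303 to 7.68% in aJ1aJ2, all 9 muscle markers were positive in the comparison, and with that share as a covariate Hspb1 was at 0.92 (adjusted p = 0.393). Of the 10 genes 0 passed in edgeR, and 0% of all genes did (1968 at an unadjusted p below 0.05, 417 by DESeq2). Hspb1 was the 1 gene of the 10 without overlap, where 3.59% of all genes had none.

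In the second 7-day set both cold-shock genes passed. Against aJ1aJ2 of the same set, aN1aN2aN3 had higher Cirbp and lower Rbm3, Hsph1, Hspa8 and Hspd1, so 5 of the 10 genes passed, 1 higher and 4 lower. This stands against a wide background, since 19.6% of all genes tested passed in this comparison. The heat-shock genes did not move as a body. Of the 8, 3 passed and all were lower, 5 estimates were negative and 3 positive, and the median was -0.31 against -0.07 over all genes.

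Cirbp had 64.7, 78.5, 59.9, 54.2 and 58.8 CPM in aJ1aJ2 and 215, 265, 357, 284 and 297 CPM in aN1aN2aN3. It rose 4.38-fold (log2 2.13, SE 0.18, adjusted p = 0.00031), and the lowest aN1aN2aN3 library was above the highest Cirbp level of any other group, 108 CPM. Rbm3 had 7.65, 5.33, 6.76, 5.96 and 5.46 CPM in aJ1aJ2 and 3.19, 2.22, 2.99, 3.63 and 2.96 CPM in aN1aN2aN3. Rbm3 fell by 1.09 on the log2 scale (SE 0.20, adjusted p = 0.00494), also without overlap. The calls of both were kept in every fit that left out 1 library. The 2 cold-shock genes moved in opposite directions here, each past the threshold. Of the tested comparisons this is the 1 in which Rbm3 passed, and it went the same way as the 3 heat-shock genes that passed.

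Hsph1 had 28.4, 25.4, 27.0, 48.5 and 42.7 CPM in aJ1aJ2 and 23.3, 23.0, 11.6, 12.8 and 11.4 CPM in aN1aN2aN3. The groups did not overlap, and Hsph1 fell by 1.09 (SE 0.28, adjusted p = 0.0192). Hspa8 had 14.3, 13.7, 17.1, 14.1 and 24.3 CPM in aJ1aJ2 and 11.0, 11.1, 10.3, 7.80 and 10.2 CPM in aN1aN2aN3, without overlap, and fell by 0.76 (SE 0.20, adjusted p = 0.0198). Hspd1 went from 10.4 ± 1.92 to 6.72 ± 1.39 CPM with overlap by 1 library, and fell by 0.66 (SE 0.20, adjusted p = 0.0386). Each of these calls was lost in some of the fits that left out 1 library. Hsph1 was lost without aN1aN2aN3 replicate 3 or 5 (adjusted p = 0.0518 to 0.0550), Hspa8 without replicate 3 or 4 (adjusted p = 0.0510 to 0.0520), and Hspd1 in 8 of 10 such fits (adjusted p = 0.0581 to 0.0935). Of the 10 genes 1 lay wholly above and 3 wholly below aJ1aJ2, where 15.0% of all genes did not overlap.

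The inducible Hsp70 pair did not follow. Hspa1a had 4.07, 5.38, 3.97, 4.74 and 11.6 CPM in aJ1aJ2 and 9.29, 11.5, 13.1, 9.30 and 10.4 CPM in aN1aN2aN3, with a log2 fold change of 0.82 (SE 0.29, adjusted p = 0.0670). Replicate 5 of aJ1aJ2 stood apart in both copies, and at 26.7 CPM of Hspa1b lay above the other 4 (7.11 to 9.69 CPM). Without it Hspa1a passed (adjusted p = 0.00268), and Hspa1b went from 0.00 (adjusted p = 0.993) to 0.54 (adjusted p = 0.0346). Hsp90aa1 had -0.61 (adjusted p = 0.0600), and passed without aJ1aJ2 replicate 4 or 5 (adjusted p = 0.0290 to 0.0339). Dnajb1 had 0.14 (adjusted p = 0.603) and Hspb1 0.75 (adjusted p = 0.217).

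Composition moved with this comparison. The thyroid share was 1.29 to 3.09% in aJ1aJ2 and 3.94 to 6.87% in aN1aN2aN3, the C-cell share 0.679 to 2.60% and 3.07 to 4.80%, and the adipose share 0.443 to 0.663% and 0.0464 to 0.219%, each without overlap. The mitochondrial share did not overlap either (2.02 to 3.57% and 0.704 to 1.73%). Most of the thyroid share was Tg alone (1.15 to 2.82% and 3.73 to 6.50%). Of 11 thyroid markers tested, 2 were higher and 1 lower, where 19.6% of all genes passed. Their estimates were 5 positive and 6 negative (median -0.18), so the markers did not rise as a set. All 6 fibroblast markers were negative (median -2.33), and 2 of them passed, while their share overlapped (0.0857 to 0.288% and 0.0582 to 0.157%). The muscle share overlapped (0.0404 to 11.1% and 0.578 to 3.05%), with all 9 muscle estimates negative, and with it as a covariate Cirbp was at 2.16 (adjusted p = 6.62e-05). With the share of thyroglobulin (Tg), a covariate chosen after seeing the data whose values do not overlap between the groups, Cirbp was at 2.13 (adjusted p = 0.0683), Rbm3 at -0.93 (adjusted p = 0.338), and 0 of the 10 genes passed. Thyroid share and antibody cannot be told apart here.

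Within groups, the question of opposed movement can be asked without any treatment difference. Each log2 CPM value was set relative to the mean of its own group, and the 45 pairs of genes were correlated over the 50 libraries, with 100000 permutations within groups and adjustment over the 45 pairs. Cirbp ran against Hsph1, with Pearson r = -0.76 and Spearman rho = -0.79 (permutation p = 1e-05 for both, the smallest these permutations can give, adjusted p = 7.5e-05 for r). The sign held in each set, with r = -0.84 at 15 hours, -0.73 at 5 days, -0.65 in the first and -0.80 in the second 7-day set. It was -0.74 without the 2 libraries farthest from the Cirbp median and -0.82 without RW replicate 3 at 5 days. With the muscle share regressed out it was -0.68.

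**Figure D3:**
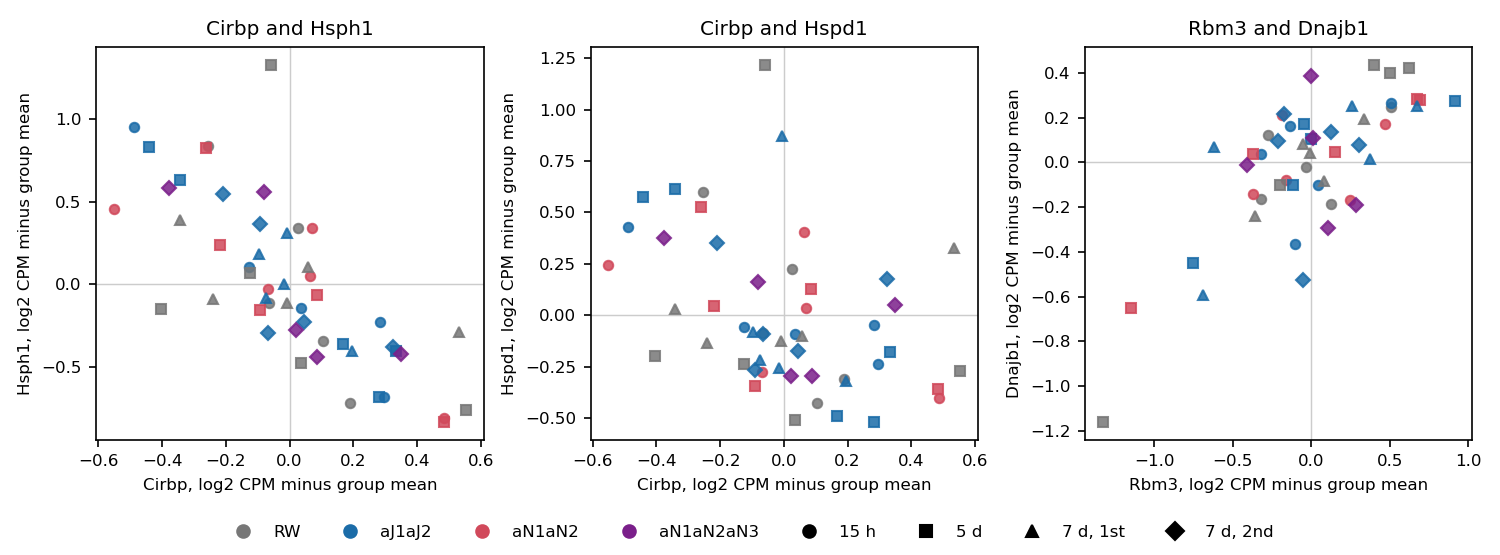
Each point is 1 of 50 libraries, placed by the log2 CPM of 2 genes minus the mean of its group, coloured by antibody and shaped by time and set. Cirbp falls as Hsph1 rises (r = -0.76), more loosely as Hspd1 rises (r = -0.41), and Rbm3 rises with Dnajb1 (r = 0.73), where RW replicate 3 at 5 days lies lowest.

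Among the other heat-shock genes Cirbp was past the threshold only with Hspd1, at r = -0.41 (rho = -0.44, permutation p = 0.0101, adjusted p = 0.0240). That pair was at -0.39 without the 2 libraries farthest from the Cirbp median, at 0.20 in the first 7-day set and at -0.11 with the muscle share regressed out. The 8 r values of Cirbp ran from -0.76 to 0.26 with a median of -0.30. With the muscle share regressed out, r of Cirbp with Hsp90aa1 went from -0.32 to -0.61, and with Hspb1 from -0.32 to 0.12. Rbm3 did not run against the heat-shock genes as a class. It rose with Dnajb1 (r = 0.73, rho = 0.63, permutation p = 1e-05, adjusted p = 7.5e-05), Hspa1b (r = 0.48, rho = 0.36, permutation p = 0.00373, adjusted p = 0.00987) and Hsp90aa1 (r = 0.39, rho = 0.32, permutation p = 0.0139, adjusted p = 0.0299). It ran against Hspb1 (r = -0.55, rho = -0.49, permutation p = 0.001, adjusted p = 0.00375) and Hspd1 (r = -0.47, rho = -0.31, permutation p = 0.0121, adjusted p = 0.0272). Rbm3 with Dnajb1 was at 0.40, 0.92, 0.73 and -0.13 in the 4 sets, and at 0.64 without RW replicate 3 at 5 days. Without the 2 libraries farthest from the Rbm3 median, r was 0.59 with Dnajb1, 0.36 with Hspa1b, 0.31 with Hsp90aa1, -0.40 with Hspb1 and -0.27 with Hspd1, the last moving most from its full value. Cirbp and Rbm3 were not past the threshold (r = -0.05, rho = -0.14, permutation p = 0.747, adjusted p = 0.794). The sign of this r depended on the setting. It was 0.31 on unscaled CPM and -0.40 with the muscle share regressed out. By set it was 0.36 at 15 hours, -0.12 at 5 days, -0.37 in the first and -0.07 in the second 7-day set.

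**Figure D4:**
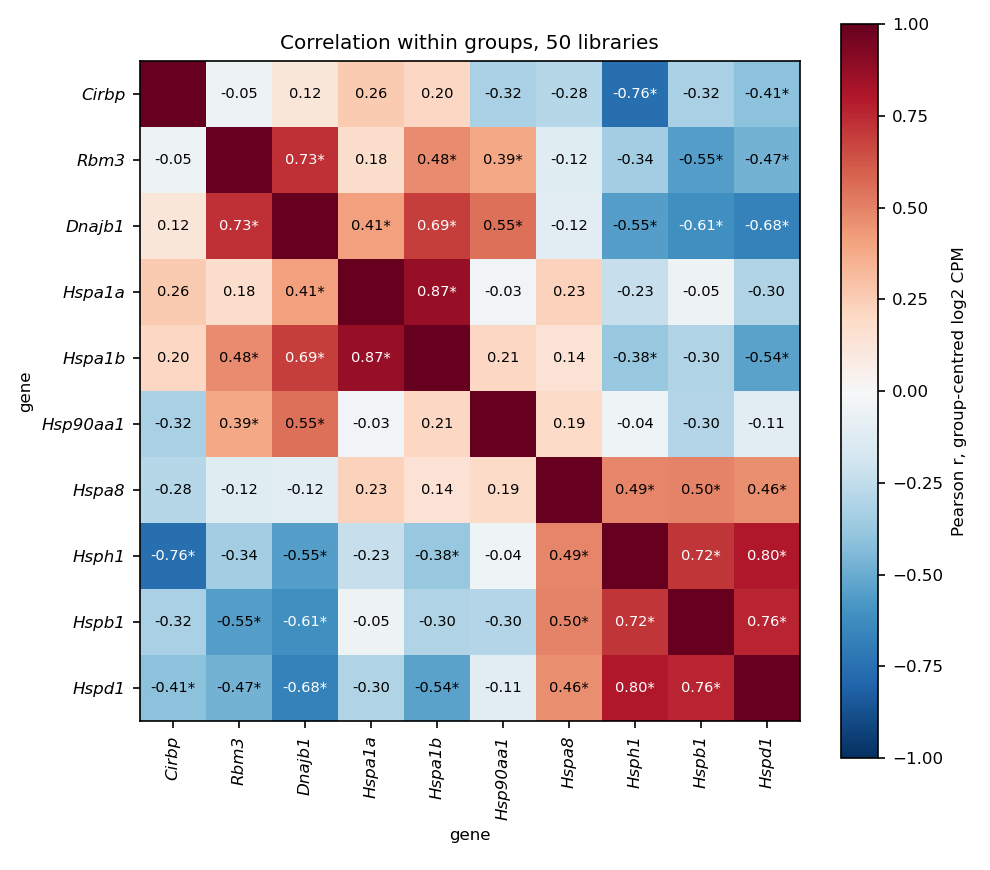
The grid gives Pearson r of group-centred log2 CPM for the 45 pairs of the 10 genes over 50 libraries, with an asterisk where the permutation p adjusted over the 45 pairs was below 0.05. Hsph1, Hspb1 and Hspd1 form a positive corner (0.72 to 0.80), and all 3 are negative with Dnajb1 (-0.55 to -0.68).

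The heat-shock genes themselves split within groups. Of their 28 pairs 15 passed, 10 positive and 5 negative. The share over pairs of other genes is not given here. These counts, and those of Cirbp and Rbm3, are therefore not read as a trait of these genes. Hspa1a and Hspa1b moved together (r = 0.87, rho = 0.88, permutation p = 1e-05, adjusted p = 7.5e-05) and reads of their shared sequence cannot be told apart. Hsph1 rose with Hspd1 (r = 0.80, rho = 0.76) and with Hspb1 (r = 0.72, rho = 0.66), each with a permutation p of 1e-05 and an adjusted p of 7.5e-05. Hspb1 rose with Hspd1 (r = 0.76, rho = 0.71, permutation p = 3e-05, adjusted p = 0.000193). Dnajb1 ran against all 3. Its r was -0.55 with Hsph1 (rho = -0.35, permutation p = 0.00131, adjusted p = 0.00453), -0.61 with Hspb1 (rho = -0.44, permutation p = 0.00044, adjusted p = 0.0018) and -0.68 with Hspd1 (rho = -0.43, permutation p = 0.00027, adjusted p = 0.00152). Over the same libraries Hsph1 had r = 0.77 with the muscle share and -0.66 with the thyroid share, Hspb1 0.79 and -0.71, and Hspd1 0.69 and -0.83. Dnajb1 had the opposite signs, -0.67 with muscle and 0.76 with thyroid, and Rbm3 -0.50 and 0.64. Cirbp was at -0.49 with muscle and 0.30 with thyroid. The endothelium share had r = -0.84 with Hsph1, its largest with any share, and 0.50 with Cirbp, also its largest. The mitochondrial share had 0.86 with Hspd1, 0.75 with Hsph1 and -0.41 with Cirbp. These r values with tissue shares are descriptions over libraries that share dissection and counting, with no test. With the muscle share regressed out, Hsph1 with Dnajb1 went to -0.06 and Hsph1 with Hspd1 to 0.57.

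Genes most like a member were sought among 12008 genes with a mean of at least 5 CPM, by Pearson r of group-centred log2 CPM over the 50 libraries, as a description. For Cirbp they were 2900052L18Rik (0.78), 2810013P06Rik (0.76), Cep63 (0.76), Fance (0.74) and Xpa (0.74). For Rbm3 they were Nfya (0.80), Cggbp1 (0.78), Spty2d1 (0.77), Mis12 (0.77) and Tent5a (0.76). For Hsph1 they were Ahsa2 (0.90), Fam185a (0.89), Ube3c (0.87), Gfm1 (0.86) and Car3 (0.86). Ahsa2 is related to Ahsa1, the activator of the Hsp90 ATPase, and Car3 encodes a carbonic anhydrase abundant in muscle and fat. Among the same genes, those most opposed to Hsph1 were Lrrc29 (-0.87), 5330438D12Rik (-0.86), Bin3 (-0.85), Xpa (-0.85) and 5031434O11Rik (-0.85). Each was stronger than the r of -0.76 between Hsph1 and Cirbp, so Cirbp was not the gene most opposed to Hsph1. Those most opposed to Cirbp were Gnl3l (-0.66), Lgi2 (-0.66), Ankrd6 (-0.65), Tubb2a (-0.65) and Ddah1 (-0.64), each weaker than its r with Hsph1.

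Beyond the 8, 43 other heat-shock and co-chaperone genes were listed. In aN1aN2 against RW at 15 hours 4 of the 43 were higher and 0 lower, where 1.68% of all genes passed, and 34 estimates were positive (median 0.25). In aJ1aJ2 against the same RW libraries 0 passed, with 21 positive and 22 negative. Dnaja1, a second cytosolic Hsp40, went from 21.7 ± 1.30 to 41.8 ± 3.84 CPM (log2 0.94, adjusted p = 0.00196). Serpinh1, the collagen chaperone Hsp47, went from 119 ± 15.9 to 223 ± 22.4 CPM (log2 0.90, adjusted p = 0.00386), and Chordc1, an Hsp90 co-chaperone, had a log2 fold change of 0.93 (adjusted p = 0.00841). At 5 days 41 of the 43 had negative estimates in each antibody group against the shared RW libraries, with 1 lower and 0 higher in aJ1aJ2 and 0 of either in aN1aN2. The change of the aN1aN2 effect with time had 7 of 43 lower and 0 higher, where 1.80% of all genes passed, led by Serpinh1 (-1.99, adjusted p = 6.54e-06), Dnaja1 (-1.49, adjusted p = 0.000386) and Stip1, which links Hsp70 to Hsp90 (-1.10, adjusted p = 0.00267). Of 8 listed subunits of the TRiC chaperonin, which folds actin and tubulin, 0 passed at 15 hours with 8 positive, and 0 at 5 days with 8 negative, and in the change of the aN1aN2 effect with time Cct3 passed (-0.73, adjusted p = 0.0174). That change holds the 5-day RW libraries through which Cirbp was chosen, so its p-values are a description. In aN1aN2aN3 against aJ1aJ2, 2 of the 43 were higher and 8 lower, a share near the 19.6% of all genes and so no result about chaperones as a set. Among them were Chordc1 (-1.46, adjusted p = 0.000928), Ahsa2 (-1.07, adjusted p = 0.00218) and Serpinh1 (-1.34, adjusted p = 0.00327) on the lower side, and Dnajc7 (0.76, adjusted p = 0.0146) and Unc45a (1.01, adjusted p = 0.0244) on the higher.

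Of 15 RNA-binding genes related to Cirbp and Rbm3, 0 passed at 15 hours or 5 days. In aN1aN2aN3 against aJ1aJ2 3 passed, a share near the 19.6% of all genes, in that Srsf5 (1.17, adjusted p = 0.0130) and Hnrnpd (0.50, adjusted p = 0.0457) were higher and Srsf3 (-0.70, adjusted p = 0.0301) was lower. Within groups, r with Cirbp ran from -0.08 for Hnrnpa2b1 to 0.63 for Srsf5 over those with a mean of at least 5 CPM, with 0.44 for Hnrnpd and 0.24 for Srsf3, as a description. Of 7 genes with a cold-shock domain, 5 could be tested and 0 passed in any comparison. Cirbp and the circadian clock are both known to follow the time of day, and the hour of collection is not in the labels. Of 15 clock genes, Nr1d2 (-1.13, adjusted p = 0.00246), Nr1d1 (-1.84, adjusted p = 0.00750) and Dbp (-1.30, adjusted p = 0.0375) were lower in aN1aN2 than in RW at 15 hours, where 1.68% of all genes passed. At 5 days 0 of 15 passed against RW, with 10 positive and 5 negative in each antibody group (median 0.65 in aJ1aJ2, 0.72 in aN1aN2). Calls in the change of the aN1aN2 effect with time, where 1.80% of all genes passed, included Dbp (4.31), Nr1d1 (2.89), Per3 (1.87) and Cry1 (-2.25). In that of aJ1aJ2, where 0.636% of all genes passed, they were Dbp (3.08) and Per3 (1.87). Both changes hold the 5-day RW libraries and are a description. In aN1aN2aN3 against aJ1aJ2 4 of 15 were higher and 0 lower, where 19.6% of all genes passed, among them Npas2 (2.22, adjusted p = 0.00443), Per1 (1.94, adjusted p = 0.00502) and Cry2 (1.19, adjusted p = 0.0145). Within groups, r with Cirbp was 0.49 for Npas2, 0.09 for Nr1d1, 0.08 for Dbp, -0.08 for Per1, -0.10 for Cry2, -0.10 for Per3, -0.12 for Nr1d2 and -0.43 for Cry1. Of 10 immediate early genes, which answer to stress within minutes, Junb was lower in aN1aN2 at 15 hours (-1.75, adjusted p = 0.0497), and 4 were higher in aN1aN2aN3, where 19.6% of all genes passed, with Ier2 (1.15, adjusted p = 0.0167), Junb (1.83, adjusted p = 0.0169) and Ier3 (0.80, adjusted p = 0.0484) among them. The part of collection time or of tissue handling in the values of Cirbp and the chaperones was not tested.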

How the data were processed

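Thyroid RNA was sequenced as 50-base single-end reads, per the labels' protocols. GSNAP and limma are named in the submitters' processing notes, and no source here states their versions, the genome build, the annotation or the strand of counting. Read counts per gene and FPKM are the units of the tables the authors deposited. For 89.4% of 11874 genes the length behind the deposited FPKM was within 5% of the whole gene span in GENCODE M21, and for 4.23% within 5% of the joined exons. Whether intronic reads were counted was not tested.

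The main test was edgeR 4.0.16 (R 4.3.3) quasi-likelihood on the counts, with TMM scaling, filterByExpr (minimum count 10, total 15), 1 fit per time and set, and Benjamini-Hochberg adjustment over all genes at 0.05. CPM levels use TMM factors over all 50 libraries, and fold changes those of their own fit. Correlations use log2 CPM with a prior count of 2. DESeq2 1.42.0, limma 3.58.1 (voom with quality weights, and limma-trend on log2(FPKM + 0.1) within an FPKM block), RLE scaling, no filter, other samples in the fit, covariates, the replicate block, summed Hspa1a and Hspa1b, and leaving out each library were alternatives. Scripts ran in Python 3.11.15 with scipy 1.17.1 and were tested on simulated data. No 2 replicates were near-identical (smallest chi-square per degree of freedom 17.1 over 100 pairs). Totals of 15271242 to 52835846 counts per library set the precision. The 10 genes and all lists were chosen with earlier results of these data known. Of the other lists, up to 3 called genes per direction with the smallest adjusted p are named.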

Additional observations from a re-analysis of the deposited data

Results flagged for a closer look

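In 12 of 100 combinations of gene and group, a single library stood apart from the other 4 by Dixon's 95% criterion, where chance alone marks about 1 in 20. RW replicate 3 at 5 days accounted for 3 of them, with Hsph1 at 288 CPM (others 67.5 to 119.8), Hspb1 at 12.4 CPM (1.75 to 2.65) and Hspd1 at 28.2 CPM (8.46 to 10.5). This library had 11.3% of its counts in muscle markers and 0.455% in thyroid markers.

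In aJ1aJ2 of the second 7-day set, replicate 5 stood above the others in both inducible Hsp70 copies, with Hspa1a at 11.6 CPM (3.97 to 5.38) and Hspa1b at 26.7 CPM (7.11 to 9.69), and replicate 4 stood below them in Dnajb1, at 30.7 CPM (46.8 to 51.4). Hspa8 was low in RW replicate 4 at 15 hours, at 18.6 CPM (22.5 to 23.4), and in aN1aN2aN3 replicate 4, at 7.80 CPM (10.2 to 11.1). Hspd1 was high in aJ1aJ2 replicate 3 at 15 hours, at 11.6 CPM (7.27 to 8.29), and in aJ1aJ2 replicate 2 of the first 7-day set, at 18.1 CPM (7.85 to 9.29). In that set Cirbp was high in aJ1aJ2 replicate 1, at 88.3 CPM (72.1 to 76.7), and Hspa1a in RW replicate 5, at 12.0 CPM (6.81 to 7.93).

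The difference between an antibody group and RW changed between 15 hours and 5 days in 5 cases. RW at 15 hours and RW at 5 days lie in different FPKM blocks, so time and block cannot be told apart. For aN1aN2 the log2 change of effect was -1.93 for Hspa8 (95% interval -2.43 to -1.43), -1.82 for Hsp90aa1 (-2.47 to -1.17) and -3.02 for Hspb1 (-4.50 to -1.53). Cirbp changed by 1.80 for aN1aN2 and by 1.43 for aJ1aJ2. All 5 cases rest on the 5-day RW libraries with which Cirbp was chosen.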

How the results depend on the processing

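The number of the 10 genes called changed with the tool and with tissue covariates. For aN1aN2 against RW at 15 hours it was 4, and 8 with DESeq2, 8 with the muscle covariate and 7 with the Tg covariate, which was chosen after seeing the data. For aN1aN2 against aJ1aJ2 at 15 hours it was 1, and 6 with DESeq2, 4 with the muscle covariate, and 0 when the third group was left out of the fit or with the replicate block. For aJ1aJ2 against RW at 5 days, the comparison that chose Cirbp, it ran from 0 to 9 over settings, and nothing is read from it. For aN1aN2 against RW at 5 days it was 0, and 2 with DESeq2, 4 with voom, 5 with muscle and 3 with Tg. In the second 7-day set it was 5, and 9 with voom, 0 with Tg and 2 with the replicate block. For the change of effect with time it was 4 for aN1aN2 (8 with voom, 8 with muscle, 9 with Tg). For aJ1aJ2 that contrast holds the comparison that chose Cirbp. Its counts (1, and 9 with voom) are not read. The 5-day counts and those of the changes of effect include Cirbp, which was chosen from these RW libraries. The share of all genes called at each setting is not set beside these counts. Counts over all genes changed widely too, as given below. A higher count of the 10 genes is therefore not read as a result about them. The cause was not tested.

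Leaving out 1 library gave 3 to 6 called genes for aN1aN2 against RW at 15 hours, 0 to 1 against aJ1aJ2, 0 to 1 for aJ1aJ2 at 5 days, 2 to 8 in the second set, 0 to 2 for the aJ1aJ2 and 3 to 5 for the aN1aN2 change of effect, and 0 in the other comparisons. Over all genes, these fits called 120 to 444 for aN1aN2 against RW at 15 hours and 9 to 44 against aJ1aJ2. They called 2042 to 4305 in the second set and 224 to 511 for the aN1aN2 change of effect. As above, nothing is read from the counts for aJ1aJ2 at 5 days and for its change of effect. The other counts are not read as a result about these genes either, since the share of all genes is not given fit by fit. Hspa1b in the second set (0.00) turned to 0.49 with voom and ran from -0.13 to 0.54 without 1 library. Of the correlations, Cirbp had 0 positive pairs, and 3 on unscaled CPM. Without RW replicate 3 at 5 days Cirbp had 4 negative pairs in place of 2 and Rbm3 had 1 negative and 2 positive. Rbm3 had 2 negative pairs (1 by Spearman, 1 unscaled, 0 with muscle regressed out) and 3 positive (1 by Spearman, 1 with muscle regressed out).

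Over all genes, settings other than leaving out a library gave 36 to 265 calls against 106 for aJ1aJ2 at 15 hours, 186 to 842 against 311 for aN1aN2, and 11 to 504 against 24 between them. At 5 days they gave 0 to 3475 against 33, 0 to 1507 against 0, and 0 to 69 against 0, in the same order. At 7 days they gave 0 to 621 against 0 in the first set and 3 to 8214 against 3614 in the second. For the changes of effect they gave 27 to 3200 against 123 (aJ1aJ2) and 233 to 1807 against 348 (aN1aN2).

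Replicate numbers were not taken as pairs in the main test. Of 40 same-numbered pairs, 18 had a correlation of deviations above 0.1 (range -0.84 to 0.84). Differently numbered pairs were not set beside them, so these values cannot exclude pairing. With the replicate block, Cirbp was at -0.95 (adjusted p = 0.0566) for aN1aN2 at 15 hours and at 2.13 (adjusted p = 0.00566) in the second set, where Hsph1 was at -1.13 (adjusted p = 0.0540) and Hspa8 at -0.74 (adjusted p = 0.0534). Hspb1, with as few as 6 counts in a library, has the least depth of the 10 genes.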
